A study of Homo sapiens with 8 samples.

Results

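NFE2L2, the gene of the transcription factor NRF2, and 8 enzyme genes that NRF2 is known to control were examined in HuH7 cells that had been deprived of oxygen and glucose, reoxygenated (OGD/R) and treated with ginsenoside Rk2. The 9 genes were taken by symbol from the table of raw counts, which held 15745 genes with a usable symbol. All 9 reached 10 counts in 4 or more libraries, as did 12910 genes in all, so none was lost to the filter. HuH7 is an established line of human hepatoma cells, labelled as wild type. All cultures spent 6 h in medium without glucose under 1% oxygen, followed by 6 h of reoxygenation. For the reoxygenation, 4 libraries received dimethyl sulfoxide as vehicle (I/R+DMSO) and 4 received 20 µM Rk2 (I/R+Rk2). Both groups went through OGD/R, and cells without OGD/R were not analysed here, so every value compares Rk2 with vehicle in stressed cells. Rk2 is a rare ginsenoside, a class of ginseng saponins, and the study asked whether it protects hepatocytes from ischemia/reperfusion injury.

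NRF2 is held in the cytoplasm by KEAP1, which has it ubiquitinated and degraded. When oxidants or electrophiles modify KEAP1, NRF2 accumulates, pairs with a small MAF protein in the nucleus and binds antioxidant response elements of genes for detoxifying enzymes. BACH1 binds the same elements as a repressor and is released by heme, which makes HMOX1 a target of both proteins. In liver the pathway is known for defence against reactive oxygen species during reperfusion, and in liver tumours it is often active without stress.

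The 8 libraries held between 16374082 and 30310479 counts. Expression is given as CPM, the share of a library's counts on a fixed scale, normalized with the trimmed mean of M-values (TMM), and levels of different genes are compared as FPKM, which also divides by gene length. The hepatocyte markers fitted the label of the cells. All 11 markers had counts in every library, their summed level was 11861 to 12918 CPM in I/R+DMSO and 12726 to 13119 CPM in I/R+Rk2, and AFP, the fetal serum protein that hepatoma cells make, was the most abundant. Of 10 markers of other liver cells, PTPRC, CD163, CDH5 and DCN were listed at an FPKM of 0 throughout. The other 6 summed to between 70.4 and 86.2 CPM in I/R+DMSO and between 68.8 and 84.4 CPM in I/R+Rk2, most of it CD68, a lysosomal protein, and none of the 3 that could be tested passed. In a bulk library, fewer expressing cells and less RNA per cell cannot be told apart. The labels do not say that the replicates were separate cultures, so the p-values measure only the spread between these libraries.

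One library stood apart. On the second principal component, I/R+DMSO replicate 1 scored 78.7, and the remaining libraries of its group scored between -48.6 and -41.4. Within I/R+DMSO it had the highest CPM for 5 of the 9 genes and the lowest for 2, NFE2L2 and TXNRD1. Each gene is therefore also given without it. Across genes, the deviation of a library's log2 CPM from the gene's mean was correlated with gene length at a Spearman's rho of -0.489 in that library and of -0.185 to -0.00386 in the other I/R+DMSO libraries. The rho was 0.207 to 0.378 in the I/R+Rk2 libraries, so a fit corrected for gene length was run, and its value is given where it ends a call or moves a called value by over 1.5 times.

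Across the 9 genes 1 was called higher and 1 lower, and most of them did not pass. HMOX1 rose, AKR1B10 fell, and the other 7 did not pass an adjusted p of 0.05 in edgeR. The rise of HMOX1 passed in all 19 alternative settings, and the fall of AKR1B10 in only 6 of 20. Of all genes tested, 18.2% passed, 11.0% as higher and 7.24% as lower in I/R+Rk2, so 2 of 9 is close to the background. The split of calls over all genes was 1417 higher to 935 lower. It moved to 1246 to 1306 with upper-quartile normalization, 1642 to 683 with library size only, and 1134 to 1159 after the gene length correction. By sign alone, 5 of the 9 genes had a positive and 4 a negative log2 fold change, with a median of 0.01 beside -0.00205 over all genes tested. The groups did not overlap in CPM for 3 of the 9 genes, HMOX1, NQO1 and AKR1B10, beside 28.3% of all genes.

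**Figure D1:**
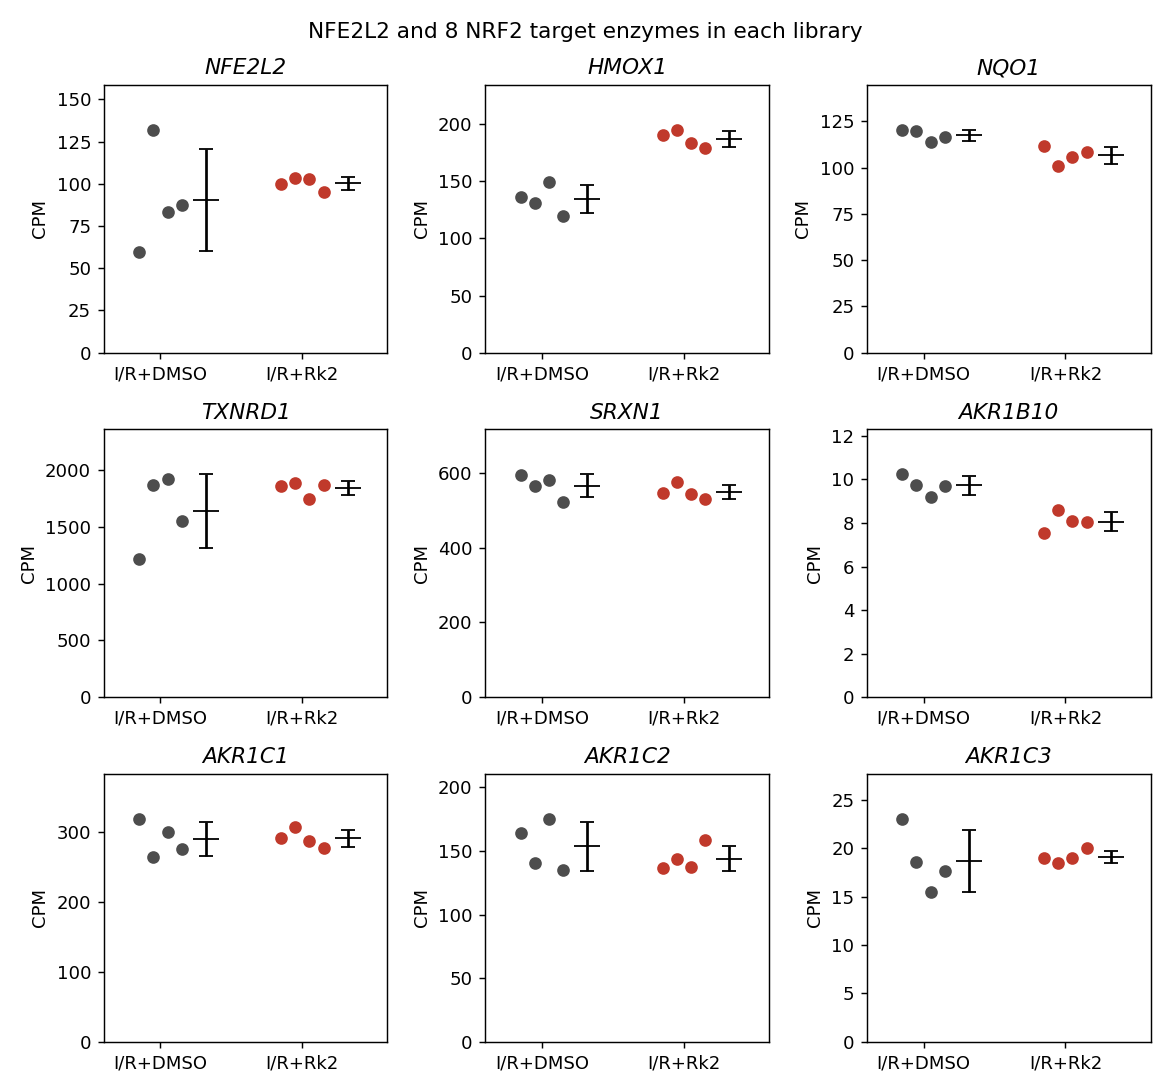
CPM of NFE2L2 and the 8 enzyme genes in each library, with each axis starting at 0. Points are libraries in replicate order and bars are the mean ± SD (n = 4). HMOX1 lies between 120 and 149 CPM in I/R+DMSO and between 179 and 195 CPM in I/R+Rk2, AKR1B10 and NQO1 are lower in every I/R+Rk2 library, and the I/R+DMSO points of NFE2L2 and TXNRD1 are spread widely.

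NFE2L2 encodes NRF2 itself, a protein controlled mainly by degradation, so its mRNA is a limited readout of the pathway. It lies on chromosome 2 from 177227595 to 177392697 on the minus strand (GENCODE v29, GRCh38). Its level was 59.6, 132, 83.3 and 87.4 CPM in I/R+DMSO replicates 1 to 4, and 99.6, 103, 103 and 94.9 CPM in I/R+Rk2. The I/R+Rk2 libraries were tightly grouped and all lay inside the range of I/R+DMSO, where replicate 1 was the lowest and replicate 2 the highest. The means were 90.6 ± 30.3 and 100 ± 3.90 CPM (SD, n = 4 each), with a log2 fold change of 0.14 (95% interval -0.34 to 0.63, adjusted p = 0.670 in edgeR). The interval was the widest of the 9, and the value was -0.01 (adjusted p = 0.970) without I/R+DMSO replicate 1 and 0.38 without replicate 2. A change of this transcript was not detectable beside the spread of the I/R+DMSO libraries.

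HMOX1 encodes heme oxygenase 1, which breaks heme down to biliverdin, carbon monoxide and iron. The gene lies on chromosome 22 from 35380361 to 35394214 on the plus strand. It was at 136, 131, 149 and 120 CPM in I/R+DMSO replicates 1 to 4 and at 190, 195, 183 and 179 CPM in I/R+Rk2. Every I/R+Rk2 library was above every I/R+DMSO library, and the gap between the groups was as wide as the range of I/R+DMSO. The mean rose from 134 ± 12.3 to 187 ± 7.21 CPM (SD, n = 4 each), which is a 1.39-fold increase (95% interval 1.25 to 1.55). The log2 fold change was 0.48 (standard error 0.0674, adjusted p = 0.00349 in edgeR). The groups were also separate in FPKM, at 63.6 ± 5.45 and 91.2 ± 2.61. Its size was above that of 88.8% of all genes tested. The log2 fold change was 0.49 (adjusted p = 0.00756) without I/R+DMSO replicate 1 and 0.53 (adjusted p = 0.00152) after the gene length correction. The length of HMOX1 derived from its counts and FPKM was 2083 bases, below the median of 2920 over all genes.

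NQO1 encodes an NADPH-dependent quinone reductase and is widely used as a readout of NRF2. It lies on chromosome 16 from 69706996 to 69726951 on the minus strand. The I/R+DMSO libraries had 120, 120, 114 and 117 CPM and the I/R+Rk2 libraries 112, 101, 106 and 108 CPM. All 4 I/R+Rk2 libraries were below the lowest I/R+DMSO library, by a small margin. The means were 118 ± 3.01 and 107 ± 4.57 CPM (SD, n = 4 each). The log2 fold change of -0.14 (95% interval -0.24 to -0.04) missed the threshold in edgeR, at an adjusted p of 0.0583. It passed in DESeq2 (adjusted p = 0.0253) and with upper-quartile normalization (adjusted p = 0.0382), and moved to -0.08 (adjusted p = 0.268) after the gene length correction. Without I/R+DMSO replicate 1 it was -0.13 (adjusted p = 0.0865). In FPKM the groups overlapped, at 59.9 ± 3.96 and 57.2 ± 2.76.

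TXNRD1 and SRXN1 belong to the thiol-reducing side of the pathway. TXNRD1, the cytosolic thioredoxin reductase, lies on chromosome 12 from 104215779 to 104350305 on the plus strand. It had 1215, 1870, 1919 and 1550 CPM in I/R+DMSO and 1856, 1889, 1748 and 1870 CPM in I/R+Rk2. The I/R+Rk2 values again lay within the range of I/R+DMSO, with replicate 1 of I/R+DMSO at the bottom. The means of 1638 ± 326 and 1841 ± 63.3 CPM (SD, n = 4 each) gave a log2 fold change of 0.17 (95% interval -0.14 to 0.48, adjusted p = 0.415 in edgeR). Without I/R+DMSO replicate 1 it was 0.05 (adjusted p = 0.704).

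Of the 9 genes, 7 were matched in a table of RefSeq promoters (GRCh38.p14, 250 bases before to 50 after each start), HMOX1 and AKR1B10 not being among them. The core letters of the antioxidant response element, TGACNNNGC on either strand, were found in the windows of 1 of the 7, TXNRD1. They occur in 13.3% of the 35116 windows of that table, and 16.1% of its genes have them in a window. Sequence outside the windows was not searched, so a gene without a match may still have the element. The matches are shown because they are the letters that NRF2 is known to recognise, and a match in a window is a description, not a bound site. They begin 99 and 8 bases before the first start of TXNRD1 and 102 bases before the start of a later window. Of called genes outside the 9, GCLM, SLC7A11, BACH1, MAFG and TXNIP were looked up, chosen after their values were seen. GCLM is shown, with its match beginning 34 bases before the start, BACH1, MAFG and TXNIP had no match in any window, and SLC7A11 was not matched in the table. Capitals mark the core, read in the direction of the gene. The windows lie at chr12:104215670-104215698, chr12:104215761-104215789, chr12:104286920-104286948 and chr1:93909446-93909474.
TXNRD1, 99 bases before the start: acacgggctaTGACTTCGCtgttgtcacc
TXNRD1, 8 bases before the start: gcgtccttcgGCTCCGTCAgttcccacag
TXNRD1, later window: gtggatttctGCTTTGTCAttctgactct
GCLM: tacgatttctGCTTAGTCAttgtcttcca

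SRXN1 encodes sulfiredoxin, which restores peroxiredoxins that peroxide has over-oxidised. It lies on chromosome 20 from 646615 to 653370 on the minus strand. It had 594, 566, 581 and 523 CPM in I/R+DMSO and 546, 577, 544 and 531 CPM in I/R+Rk2. The groups overlapped throughout, with means of 566 ± 31.1 and 550 ± 19.4 CPM (SD, n = 4 each). The log2 fold change was -0.04 (95% interval -0.15 to 0.07, adjusted p = 0.584 in edgeR), and -0.02 (adjusted p = 0.827) without I/R+DMSO replicate 1.

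The exons of SRXN1 share 2292 bases, 85.0% of their length, with AL121758.1, a gene model on the same strand that reads from another exon into the last exon of SRXN1. The last coding bases before the shared exon and the first 30 within it are shown because, across this junction, only reads that reach the lower-case part can tell the genes apart. Capitals mark the shared exon.
SRXN1: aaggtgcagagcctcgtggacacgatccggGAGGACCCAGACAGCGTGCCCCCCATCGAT
AL121758.1: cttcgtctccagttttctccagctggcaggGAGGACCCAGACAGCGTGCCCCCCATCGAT

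AL121758.1 was given 316, 192, 251 and 156 counts in I/R+DMSO and 2, 1, 1 and 5 counts in I/R+Rk2. These were between 1.40% and 2.82% of the counts of SRXN1 in I/R+DMSO and at most 0.0476% in I/R+Rk2. How reads of the shared exon were divided is not given in the sources used here, so the levels of both genes carry this uncertainty. With both genes summed the log2 fold change was -0.07 (adjusted p = 0.364 in edgeR).

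The aldo-keto reductases reduce aldehydes, ketones and steroids with NADPH, and several of them are among the most responsive NRF2 targets in human cells. AKR1B10, a retinal and aldehyde reductase often raised in hepatoma, lies on chromosome 7 from 134527592 to 134541408 on the plus strand. It had 10.2, 9.75, 9.20 and 9.71 CPM in I/R+DMSO and 7.53, 8.58, 8.11 and 8.04 CPM in I/R+Rk2. Every I/R+Rk2 library was below every I/R+DMSO library. The mean fell from 9.73 ± 0.429 to 8.07 ± 0.429 CPM (SD, n = 4 each), with a log2 fold change of -0.27 (SE 0.0724, edgeR adjusted p = 0.0357). This was the least abundant of the 9, with 134 to 230 counts a library, and its call was close to the threshold. The log2 fold change was -0.28 in DESeq2 (adjusted p = 0.0552) and -0.24 with library size only (adjusted p = 0.0531). It was -0.25 without I/R+DMSO replicate 1 (adjusted p = 0.0658) and -0.21 after the gene length correction (adjusted p = 0.0680). When single libraries were left out the adjusted p lay between 0.0481 and 0.0883, and it passed only without I/R+Rk2 replicate 2. In FPKM the groups overlapped, at 5.50 ± 1.03 and 5.01 ± 1.04. Its close relative AKR1B15 had between 0 and 11 counts, and the log2 fold change of the sum of both was -0.25 (edgeR adjusted p = 0.0408).

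AKR1C1, AKR1C2 and AKR1C3, which reduce progesterone, dihydrotestosterone and prostaglandins among other substrates, lie next to each other on chromosome 10. AKR1C1 spans 4963253 to 4983283 on the plus strand, AKR1C2 spans 4987400 to 5018031 on the minus strand and AKR1C3 spans 5035354 to 5107686 on the plus strand. Their coding sequences have the same length of 969 bases. AKR1C1 and AKR1C2 are identical at 950 of these positions, 98.0%, and AKR1C1 and AKR1C3 at 91.4%. A stretch of 100 coding bases across exons 7 and 8 (GENCODE v29, GRCh38) is shown because a read inside it cannot tell AKR1C1 from AKR1C2. Capitals mark the 4 bases at which AKR1C3 differs from AKR1C1.
AKR1C1: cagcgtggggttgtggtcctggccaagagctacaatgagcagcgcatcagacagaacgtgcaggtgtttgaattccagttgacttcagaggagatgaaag
AKR1C2: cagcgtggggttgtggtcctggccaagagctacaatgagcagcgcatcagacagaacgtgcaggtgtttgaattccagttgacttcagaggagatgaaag
AKR1C3: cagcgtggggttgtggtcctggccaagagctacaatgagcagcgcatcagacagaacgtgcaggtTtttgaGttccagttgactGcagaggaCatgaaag

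AKR1C1 had 319, 264, 299 and 275 CPM in I/R+DMSO and 291, 307, 287 and 278 CPM in I/R+Rk2. The means were almost level, at 289 ± 24.6 and 291 ± 12.5 CPM (SD, n = 4 each), with a log2 fold change of 0.01 (95% interval -0.14 to 0.15, adjusted p = 0.953 in edgeR). AKR1C2 had 164, 140, 176 and 135 CPM in I/R+DMSO and 136, 144, 137 and 158 CPM in I/R+Rk2. Its groups overlapped, and the log2 fold change was -0.09 (95% interval -0.31 to 0.12, adjusted p = 0.516 in edgeR). AKR1C3 had 23.1, 18.6, 15.5 and 17.6 CPM in I/R+DMSO and 19.1, 18.5, 19.0 and 20.0 CPM in I/R+Rk2. The I/R+Rk2 libraries of all 3 genes lay inside the range of I/R+DMSO, and AKR1C3 had a log2 fold change of 0.03 (95% interval -0.23 to 0.30, adjusted p = 0.862 in edgeR). Without I/R+DMSO replicate 1 the log2 fold changes were 0.06 for AKR1C1, -0.06 for AKR1C2 and 0.15 for AKR1C3, with adjusted p-values of 0.509, 0.731 and 0.217 in edgeR. Since shared reads could be divided between them in different ways, the counts of AKR1C1 to AKR1C4 were also summed. The sum was 467 ± 41.7 CPM with DMSO and 460 ± 12.2 CPM with Rk2 (SD, n = 4 each), with a log2 fold change of -0.02 (95% interval -0.17 to 0.12, adjusted p = 0.846 in edgeR).

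**Figure D2:**
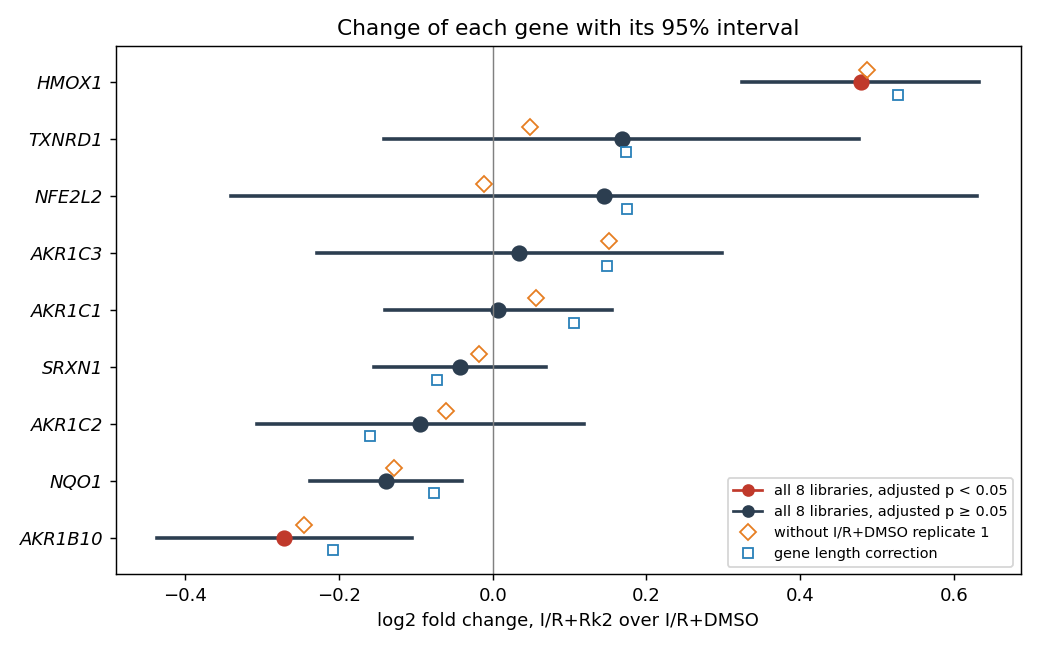
Log2 fold change of each gene, I/R+Rk2 over I/R+DMSO, with its 95% interval from edgeR on all 8 libraries. Diamonds are values without I/R+DMSO replicate 1 and squares are values after the gene length correction. HMOX1 at 0.48 and AKR1B10 at -0.27 pass the threshold in the fit on all libraries, and NFE2L2 and TXNRD1 move towards 0 without that replicate.

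The spread within groups also differed among the genes. The range of log2 CPM was larger in I/R+DMSO than in I/R+Rk2 for 7 of the 9 genes, beside 62.3% of all genes tested. It was 1.15 in I/R+DMSO and 0.12 in I/R+Rk2 for NFE2L2, and 0.66 and 0.11 for TXNRD1. NQO1 (0.08 and 0.15) and AKR1B10 (0.16 and 0.19) had the larger range in I/R+Rk2. I/R+DMSO replicate 1 deviated from the mean of the other 3 I/R+DMSO libraries by -0.73 for NFE2L2, -0.54 for TXNRD1 and 0.43 for AKR1C3 on the log2 scale, and by only 0.04 for HMOX1.

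**Figure D3:**
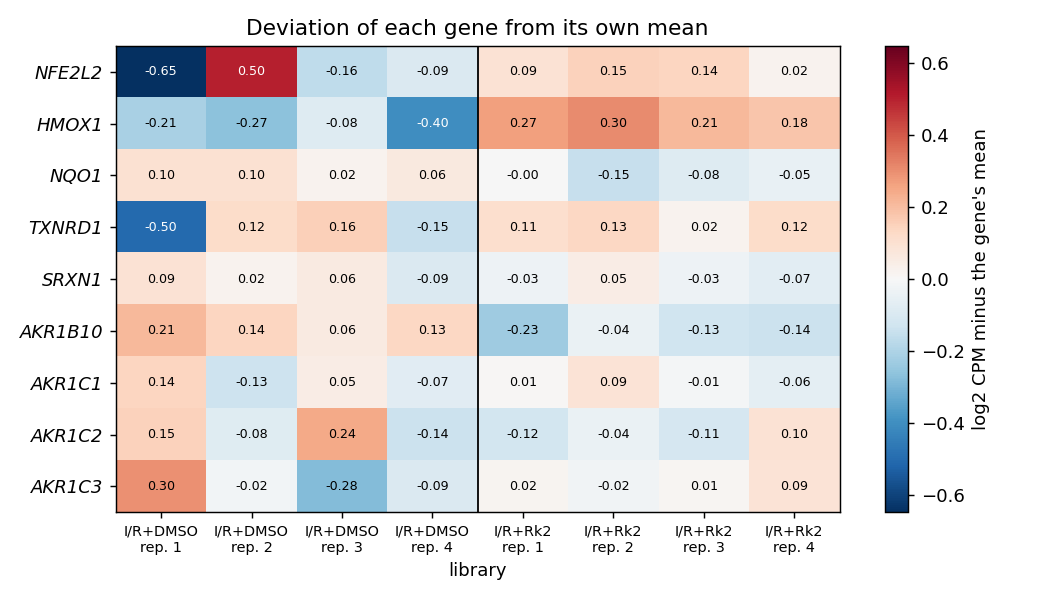
Deviation of log2 CPM from the gene's own mean over the 8 libraries, one row for each gene and one column for each library, with I/R+DMSO left of the black line. HMOX1 is below its mean in every I/R+DMSO library and above it in every I/R+Rk2 library, AKR1B10 and NQO1 have the opposite pattern, and NFE2L2 and TXNRD1 are lowest in I/R+DMSO replicate 1.

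Differences inside the family were tested as the ratio of each gene to NQO1 within a library, which does not depend on how the libraries are scaled. The log2 ratio of HMOX1 to NQO1 was 0.18, 0.13, 0.39 and 0.03 in I/R+DMSO and 0.76, 0.95, 0.79 and 0.72 in I/R+Rk2. All I/R+Rk2 libraries were above all I/R+DMSO libraries. The mean rose by 0.62, from 0.18 ± 0.15 to 0.81 ± 0.10 (SD, n = 4 each). The two-sided exact permutation p was 0.0286, the smallest that 4 against 4 libraries can give. Adjusted over the 8 ratios, the exact permutation p was 0.229 and did not pass, so this test did not establish a split. As HMOX1 was higher and NQO1 lower in every I/R+Rk2 library, the full separation was fixed in advance and adds no support. None of the other 7 ratios separated the groups. Their differences ran from -0.13 for AKR1B10 to 0.34 for NFE2L2, with exact permutation p-values of 0.0857 to 0.686. AKR1B10 and NQO1, both lower in every I/R+Rk2 library, were thus not shown to differ from each other in size of change (exact permutation p = 0.114).

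The levels of the 9 genes spanned a wide range when given per length. Over all 8 libraries TXNRD1 was the most abundant, at 657 ± 105 FPKM (SD, n = 8), which placed it at rank 79 of 19737 genes. AKR1C1 (191 ± 13.1) and SRXN1 (173 ± 6.78) followed, and AKR1C1 was above SRXN1 in 7 of 8 libraries. The next places depended on the group. HMOX1 was above NQO1 in all 4 I/R+Rk2 libraries, at 88.8 to 94.5 against 53.3 to 59.7 FPKM, and in 2 of the 4 I/R+DMSO libraries, where their ranges overlapped. NFE2L2 was likewise above AKR1C2 in all 4 I/R+Rk2 libraries, at 42.1 to 47.6 against 34.5 to 39.6 FPKM, and in 2 of the 4 I/R+DMSO libraries. AKR1C3 was at 12.9 ± 2.69 and AKR1B10 at 5.25 ± 0.992 FPKM, the lowest, with no overlap between them in any library.

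For each gene, the most similar profile over the 8 libraries was sought among 9190 other genes with at least 10 CPM on average, as the smallest root mean square difference of centred log2 CPM. The nearest to HMOX1 was AREG, which encodes the EGF receptor ligand amphiregulin (difference 0.06). The nearest to NQO1 was DTD2 (0.03) and to AKR1B10 TRMU, a tRNA-modifying enzyme of mitochondria (0.04). SRXN1 was nearest to RMND1 (0.01), AKR1C1 to GLA (0.02), AKR1C2 to ZNF558 (0.05), AKR1C3 to PUM3 (0.05) and TXNRD1 to DDX59 (0.07). NFE2L2 was nearest to NSUN4, at 0.15. The difference is not scaled to the spread of a gene, and the SD of the profile was 0.33 for NFE2L2 and 0.07 for SRXN1. Differences of different genes therefore do not rank how close their neighbours are. The neighbours are descriptions over libraries that share one experiment.

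Around the 9 genes, 86 other genes of the pathway and its neighbours were read in the same fit. Of the 82 that could be tested 16 passed, 8 higher and 8 lower, which is 19.5% beside 18.2% of all genes. Their median log2 fold change was -0.07, beside -0.00205 over all genes. The counts given for each list below were not tested against the shares over all genes, 11.0% higher and 7.24% lower.

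Among 13 regulators and partners of NRF2, 3 rose, 1 fell and 9 did not pass, with a median log2 fold change of 0.05. BACH1, the repressor of HMOX1, rose from 44.7 ± 6.23 to 69.5 ± 3.50 CPM (SD, n = 4 each), with a log2 fold change of 0.64 (edgeR adjusted p = 0.00478). It was 0.49 after the gene length correction and still passed (adjusted p = 0.00297). The small MAF proteins, partners of both NRF2 and BACH1, gave 2 further rises. MAFG rose from 61.2 ± 3.19 to 86.0 ± 1.96 CPM (log2 fold change 0.49, adjusted p = 0.000814 in edgeR). MAFK rose by 0.22 on the log2 scale (edgeR adjusted p = 0.0369), with groups that overlapped slightly, and was at 0.16 (adjusted p = 0.134) after the gene length correction. NFE2L3, a relative of NRF2, fell from 90.0 ± 2.51 to 76.8 ± 2.62 CPM (log2 fold change -0.23, adjusted p = 0.00947 in edgeR). KEAP1 was at 153 ± 13.5 and 132 ± 14.1 CPM (SD, n = 4 each), with a log2 fold change of -0.22 that did not pass (adjusted p = 0.139 in edgeR).

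The 13 genes of the glutathione arm held the largest change of these lists. SLC7A11, the cystine importer that feeds glutathione synthesis and a target of both NRF2 and ATF4, rose from 70.6 ± 6.80 to 172 ± 8.69 CPM (SD, n = 4 each). Its log2 fold change was 1.28 (standard error 0.0730, adjusted p = 6.65e-05 in edgeR), larger than that of 99.3% of all genes. GCLM, the modifier subunit of glutamate-cysteine ligase, rose from 209 ± 6.08 to 266 ± 6.34 CPM (log2 fold change 0.34, adjusted p = 0.00104 in edgeR). GCLC, the catalytic subunit of the same enzyme, was at 92.1 ± 13.4 and 88.1 ± 12.9 CPM and did not pass (log2 fold change -0.06, adjusted p = 0.774 in edgeR). The exporter ABCC4 rose by 0.25 (adjusted p = 0.0296 in edgeR), and the glutathione peroxidase GPX2 fell by 0.46 on the log2 scale (edgeR adjusted p = 0.0231). After the gene length correction ABCC4 was at 0.10 (adjusted p = 0.124) and GPX2 at -0.31 (adjusted p = 0.0849), so neither passed. In all 3 rose, 1 fell and 9 did not pass, with a median of -0.05, beside 11.0% higher and 7.24% lower over all genes.

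In the thioredoxin arm none of 13 genes rose and 2 fell, with a median log2 fold change of -0.07. Over all genes 11.0% were called higher and 7.24% lower, and counts in so few genes cannot be told apart from these shares. TXNIP, the thioredoxin inhibitor that is also induced by glucose, fell from 56.7 ± 2.08 to 35.2 ± 1.42 CPM (SD, n = 4 each), by 0.69 on the log2 scale (edgeR adjusted p = 0.000203). TXN2, the mitochondrial thioredoxin, fell by 0.28 on the log2 scale (edgeR adjusted p = 0.0164), and by 0.18 after the gene length correction, where it still passed (adjusted p = 0.0141). TXN, the cytosolic thioredoxin that TXNRD1 reduces, had a log2 fold change of -0.32 that did not pass (adjusted p = 0.218 in edgeR), with I/R+Rk2 replicate 1 far above the other I/R+Rk2 libraries. Without that library it was -0.49 and passed (adjusted p = 0.0388). Of 6 genes that supply NADPH to these enzymes, ME1, the cytosolic malic enzyme, rose by 0.22 (adjusted p = 0.00361 in edgeR). PGD, a dehydrogenase of the pentose phosphate pathway, fell by 0.22 on the log2 scale (edgeR adjusted p = 0.00549), and the median of the 6 was -0.13.

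Besides HMOX1, 9 genes of heme and iron handling were read. SLC40A1, the iron exporter ferroportin, fell from 67.0 ± 3.16 to 57.6 ± 1.38 CPM (SD, n = 4 each), with a log2 fold change of -0.22 (edgeR adjusted p = 0.0178). The other 8 did not pass, among them both ferritin subunits, at -0.11 for FTL (adjusted p = 0.250) and -0.12 for FTH1 (adjusted p = 0.251 in edgeR). The median of the 9 was -0.12. None of the 9 was called higher alongside HMOX1, beside 11.0% of all genes tested. With only 9 genes, this absence cannot be told apart from that background.

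No gene of 2 further lists passed, the other aldo-keto reductases (6 tested, median log2 fold change 0.05) and conjugating and other target enzymes (12 tested, median -0.12). The share over all genes was 18.2%, from which lists this small cannot be told apart. Of 10 other antioxidant enzymes, CAT, catalase, rose by 0.20 (adjusted p = 0.00795 in edgeR), PARK7 fell by 0.25 on the log2 scale (edgeR adjusted p = 0.0442), and 8 did not pass, with a median of -0.14. PARK7 was at -0.08 after the gene length correction (adjusted p = 0.0945). The hepatocyte markers had 1 rise and 1 fall. APOB, the apolipoprotein of VLDL, rose by 0.61 (adjusted p = 0.0124 in edgeR) and by 0.29 after the gene length correction (adjusted p = 0.0152). FGB, a fibrinogen chain, fell by 0.27 on the log2 scale (edgeR adjusted p = 0.0462), and after the gene length correction it was at -0.22 and did not pass (adjusted p = 0.0789). The median of the 11 was -0.00358.

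The called genes of these lists were not equally stable over 19 alternative settings. BACH1, MAFG, SLC7A11, GCLM, TXNIP, ME1, CAT and APOB passed in all 19. NFE2L3, TXN2 and PGD passed in 16, all but the 3 limma fits on FPKM, and SLC40A1 in 15, being lost also without I/R+Rk2 replicate 2. GPX2 passed in 11, MAFK in 10, ABCC4 in 9, PARK7 in 7 and FGB in 5, and each of these was lost when some single libraries were left out.

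**Figure D4:**
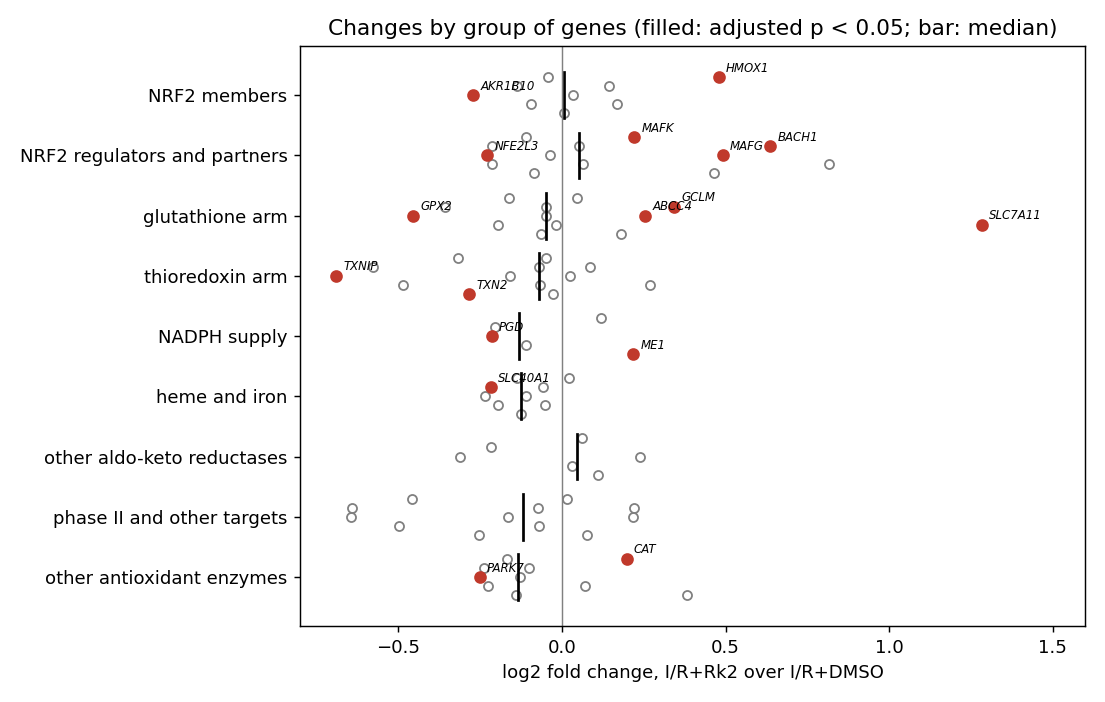
Log2 fold change, I/R+Rk2 over I/R+DMSO, of tested genes in the family and in the lists around it. Filled points passed an adjusted p of 0.05 in edgeR and are named, open points did not, and bars are medians. SLC7A11 at 1.28 and TXNIP at -0.69 are the called genes farthest from 0, and the medians of all 9 lists lie between -0.14 and 0.05.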

How the data were processed

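The RNA-seq data of the 8 HuH7 libraries came as 2 deposited tables. The authors deposited raw read counts per gene, without normalization, and FPKM, normalized for gene length and depth. Per the labels, FastQC 0.11.5, HISAT2 2.2.1 and StringTie 1.3.3 were used with hg38; the counting tool and annotation are not given in the sources used here. Columns were matched to samples by their titles. Genes whose symbols had become dates (22, 0.111% of counts) were left out.

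Counts were tested with edgeR 4.0.16 in R 4.3.3 (robust quasi-likelihood test, TMM, at least 10 counts in at least 4 libraries, condition only, Benjamini-Hochberg over all 12910 genes). Alternatives were DESeq2 1.42.0, limma 3.58.1 on log2 FPKM (pseudocount 1 or 0.1, mean FPKM at least 0.5 or no filter), voom weights, other scalings and filters, a replicate block, a gene length correction (loess, span 0.5, on a length derived from counts and FPKM), summed paralogs and each library left out. Steps were tested on simulated data. Ratios used exact permutation tests.

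The members and lists were chosen with earlier results of these data known. From each list up to 3 called genes per direction are named, besides KEAP1, BACH1, GCLC, GCLM and TXN; a result that the rule would add is not reported here; FTL and FTH1 were added after their values were seen. Positions and overlaps come from GENCODE v29 (GRCh38).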

Additional observations from a re-analysis of the deposited data

Results flagged for a closer look

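Among 40 genes screened in both groups of 4 libraries, 80 groups in all, 4 held a library that lay far outside the others, about what chance gives at 1 in 20 groups. PARK7 was at 214 CPM in I/R+DMSO replicate 1, where the other I/R+DMSO libraries had 176 to 178 CPM. TXN was at 522 CPM in I/R+Rk2 replicate 1, where the others had 334 to 358 CPM, and without that library its adjusted p passed 0.05 in edgeR. NFE2L3 was at 93.7 CPM in I/R+DMSO replicate 2, beside 88.5 to 88.9 CPM in the others. AL121758.1, which shares an exon with SRXN1, was at 0.253 CPM in I/R+Rk2 replicate 4, beside 0.0530 to 0.0655 CPM, which are 5 counts against 1 or 2. None of the 9 genes of the family was among the 4.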

How the results depend on the processing

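HMOX1 rose in all 19 alternatives, with a log2 fold change of 0.43 to 0.53 and an adjusted p of at most 0.0146, and it was the 1 gene called higher in each. AKR1B10 kept its sign in all 20 but passed in 6. The number of the 9 genes called lower was 2 with upper-quartile normalization and 0 with library size only, all 3 limma fits on FPKM, the replicate block and the gene length correction. It was 0 to 1 with each library left out. In DESeq2 the gene called lower was NQO1.

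Over all genes the limma fits on FPKM called 812, 798 and 706 higher and 311, 308 and 264 lower (pseudocount 1, 0.1 and no filter). With each library left out the counts were 863 to 1418 higher and 430 to 885 lower, lowest without I/R+Rk2 replicate 4. Of the other genes around NRF2, DESeq2 called 16 lower, upper-quartile normalization 14, and each limma fit on FPKM 1, against 4 to 9 with a library left out (4 without I/R+Rk2 replicate 2, 5 without replicate 4). The number of ratios to NQO1 that separated the groups was 1 to 2 with each library left out.

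Signs reversed only for genes that did not pass. NFE2L2 was at -0.011 to 0.38 with each library left out, the lowest without I/R+DMSO replicate 1. AKR1C1 was at -0.021 with upper-quartile normalization, -0.021 in the summed counts and -0.034 to 0.057 with each library left out. AKR1C3 was at -0.021 in the summed counts and at -0.045 to 0.15 with each library left out. The causes were not tested.

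Libraries with the same replicate number deviated together at correlations of only -0.00950 to 0.0845. The best partner had the same number for replicate 4 but not for replicates 1, 2 and 3. No clear pairing by number was seen, but low correlations cannot exclude that cultures were paired. With the replicate block 1143 genes were called higher and 672 lower, and 1 of the 9 genes higher and 0 lower. Of the regulators and glutathione genes named, KEAP1 passed under the block (adjusted p = 0.0398 in edgeR), and MAFK (0.0642) and ABCC4 (0.0556) did not. Paired differences of the HMOX1 to NQO1 ratio were positive in 4 of 4 numbers (exact permutation p = 0.125, the smallest possible). The separate groups of HMOX1 and of NQO1 in CPM had fixed this too. Of the 9 genes AKR1B10 had the fewest counts, 134 to 230 a library, and the part of depth in the spread was not tested.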
